A study of Homo sapiens with 9 samples.

Results

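The 42 genes described here encode proteins of the extracellular matrix and the enzymes that modify it. They were taken by name, as a list, from the 24672 gene symbols of the deposited tables, and measured in EPC2, an esophageal epithelial line immortalised with telomerase. All 42 had rows in every table, and 37 had enough reads to be tested. The libraries form 3 groups of 3. The ALI control libraries came from EPC2 carrying a non-silencing control construct and differentiated at an air-liquid interface. The ALI silenced libraries came from EPC2 in which SPINK7, a Kazal-type protease inhibitor gene, was silenced, likewise at the interface. The monolayer libraries came from the non-silencing control cells kept undifferentiated in monolayer. For the interface, cells were grown to confluence in 0.09 mM calcium, moved to 1.8 mM calcium on day 2, given air on day 7 and harvested on day 14, per the labels' protocols. The names of the deposited ALI tables give day 7, and whether that counts from the air step is not stated. Bovine pituitary extract (50 ug/mL) and epidermal growth factor (1 ng/mL) were in the medium. All groups are 1 immortalised line, and the labels name neither a second silenced population nor separate cultures for the libraries of a group. What the p-values weigh is thus the variation among deposited libraries, possibly technical in part.

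The extracellular matrix is the protein and sugar network that cells secrete around themselves. Epithelial cells rest on a basement membrane, a thin sheet built of laminins and type IV collagen, joined by nidogen and the heparan sulfate proteoglycans perlecan and agrin. Fibrillar collagens, fibronectin and the fibrillin microfibrils belong mainly to the connective tissue beneath, and fibronectin is also made by epithelial cells that migrate over a wound or spread on plastic. Secreted collagens depend on prolyl hydroxylases, on the chaperone SERPINH1 and on lysyl oxidases, which crosslink the fibres.

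Library totals were 7641960 to 9863537 counts in the ALI controls, 8619938 to 14009746 in the ALI silenced libraries and 9034424 to 12989094 in the monolayers. SPINK7 stood at 229, 261 and 225 CPM (counts scaled to a common library size with TMM factors) in the ALI controls and at 20.9, 38.6 and 32.6 CPM in the silenced libraries. Its log2 fold change was -2.96 (SE 0.30, adjusted p = 0.00246, edgeR). The epithelial markers KRT5, KRT14, KRT15, TP63, SOX2, CDH1, EPCAM, DSG3, KRT6A, KRT13 and IVL had counts in every library. All 11 reached 1 CPM in each ALI library, but only 10, 9 and 8 did in monolayers 1, 2 and 3. KRT13 averaged 0.415 CPM in the monolayers. Within the ALI groups the libraries numbered 2 stood apart from those numbered 1 and 3, in both arms. Monolayer libraries 2 and 3 were much closer to each other (chi-square per degree of freedom 1.91 over genes) than any other pair of 1 group (16.8 to 160), and monolayer library 1 differed from both.

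Fibronectin (FN1; chromosome 2, 216225179 to 216300791, minus strand, hg19), the large adhesive glycoprotein that links integrins to the pericellular matrix, took more of the monolayer libraries than any other gene. It held 619496, 512174 and 445254 counts there, which were 4.77, 5.33 and 4.93% of all counts (5.01 ± 0.286%, SD, n = 3). That is 1 count in 21, 19 and 20, respectively. KRT5, the next gene in each of the 3 monolayers, took 1.38, 1.35 and 1.32%. In the ALI controls FN1 held 3729, 2036 and 3322 counts, or 0.0488, 0.0233 and 0.0337% (0.0353 ± 0.0128%). In the ALI silenced libraries it held 5458, 8405 and 2703 counts, or 0.0498, 0.0600 and 0.0314% (0.0470 ± 0.0145%). FN1 ranked first by counts in every monolayer, at 253, 700 and 401 in the ALI controls, and at 246, 209 and 477 in the silenced libraries. The exact 95% intervals of these shares were narrow, for example 4.76 to 4.78% in monolayer library 1 and 0.0223 to 0.0243% in ALI control library 2. They cover counting error only, so the spread between libraries sets the error.

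The bases before the annotated FN1 start site are shown because FN1 had the highest count in the monolayers. They come from RefSeq (GRCh38.p14, chr2:215436069-215436318, minus strand, given 5′ to 3′), a different build from the read counts. Capitals mark matches to the motifs searched.
FN1: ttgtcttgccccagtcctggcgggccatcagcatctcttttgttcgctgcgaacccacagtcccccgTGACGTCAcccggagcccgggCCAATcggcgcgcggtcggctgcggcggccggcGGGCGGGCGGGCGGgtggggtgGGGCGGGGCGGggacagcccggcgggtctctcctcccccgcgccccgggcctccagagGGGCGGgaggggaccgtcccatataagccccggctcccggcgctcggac
On either strand, 5 motifs were searched in the 300 bases from 250 before to 50 after each start site. They were a TATA box (TATAAA), the letters CCAAT, a GC box (GGGCGG), a cyclic AMP response element (TGACGTCA) and an AP-1 site (TGANTCA). The FN1 window held TGACGTCA with its first base 183 bases before the start, CCAAT at 162, and GGGCGG at 129, 125, 121, 107, 102 and 49, of which the first 3 overlap, as do those at 107 and 102. It held no TATAAA and no TGANTCA. Of 35116 windows of this length in the table, 1.85% held TGACGTCA, 34.6% CCAAT, 45.0% GGGCGG, 11.5% TATAAA and 7.71% TGANTCA. A window was at hand for 32 of the 42 genes, and of these 1 (FN1) held TGACGTCA, 11 held CCAAT, 26 GGGCGG, 4 TATAAA and 2 TGANTCA. A match describes letters and is no evidence of a bound factor.

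All 42 genes together took 6.03, 6.68 and 6.24% of the monolayer counts (6.32 ± 0.331%), against 0.334, 0.157 and 0.323% in the ALI controls (0.271 ± 0.0992%). In the ALI silenced libraries they took 0.504, 0.278 and 0.330% (0.371 ± 0.118%). FN1 alone made up 79.1, 79.8 and 79.0% of the counts of the 42 genes in the monolayers. At the interface it made up 14.6, 14.9 and 10.4% in the controls and 9.88, 21.6 and 9.49% in the silenced libraries. Without FN1 the other 41 genes took 1.31 ± 0.0462% of the monolayer counts, 0.236 ± 0.0887% in the ALI controls and 0.324 ± 0.120% in the silenced libraries. The monolayers lay above all 6 ALI libraries on each of these shares, and the shares of the ALI groups overlapped.

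**Figure D1:**
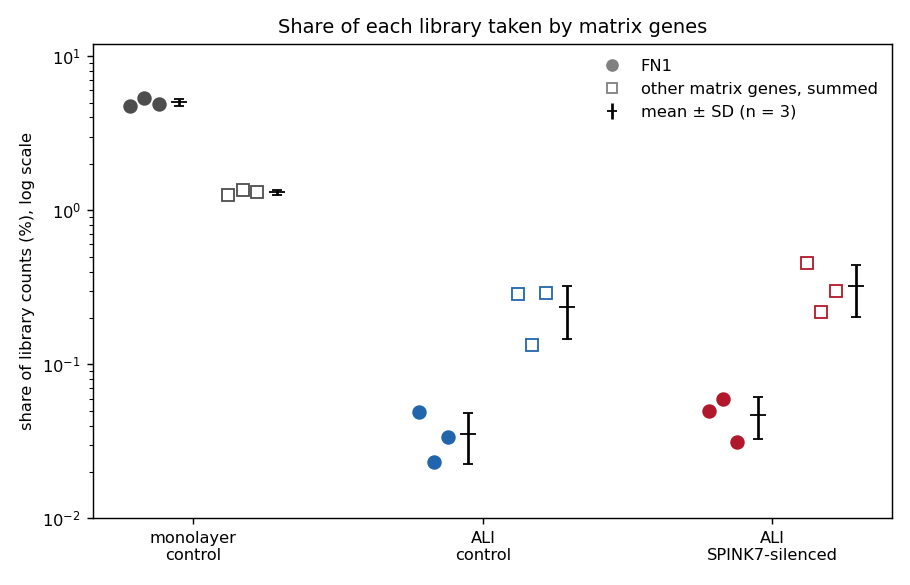
Share of each library's counts (percent, log axis) taken by FN1 (filled circles) and by the other 41 matrix genes summed (open squares), with 1 point per library and the mean ± SD of each group of 3 beside it. FN1 lies at 4.77 to 5.33% in the monolayers and at 0.0233 to 0.0600% in the 6 ALI libraries, where it lies below the other genes.

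Counts favour long transcripts, so genes were ranked against each other on the deposited RPKM (reads scaled to transcript length and library depth), summed over the rows of a gene. FN1 led the 42 genes in the monolayers at 5153 ± 431 RPKM (n = 3), followed by THBS1 at 497, SPARC at 266 and TNC at 113 RPKM. Over all genes FN1 ranked 2, 1 and 1 by RPKM in the 3 monolayers. At the interface the order was another one. THBS1 led the ALI controls at 69.4 RPKM, followed by ECM1 at 61.0, FN1 at 35.7, P4HA2 at 27.2 and MFAP5 at 27.1. The silenced libraries had THBS1 at 117, ECM1 at 85.9, FN1 at 48.7, TNC at 41.3 and MFAP5 at 39.2 RPKM. With THBS1 ranging from 90.7 to 708 CPM within the ALI controls alone, the leading places at the interface do not differ beyond the spread of the libraries.

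The comparison of ALI control with monolayer libraries asks which matrix genes differ between differentiated and undifferentiated control cells. Of the 37 tested genes 29 fell at the interface, 3 rose (ECM1, MFAP5 and BGN) and 5 did not pass (COL1A1, COL8A1, NID1, LOX and MATN2). Of all 12806 tested genes, 20.2% fell and 20.3% rose under the same test, edgeR's quasi-likelihood F-test with Benjamini-Hochberg adjusted p below 0.05. The DESeq2 Wald test called 34 of the 37, and 45.2% of all genes. The median log2 fold change of the 37 genes was -2.17, and -2.12 without FN1, beside 0.03 over all tested genes. ALI control and monolayer libraries did not overlap for 33 of the 37, with the ALI controls lower for 30 and higher for 3. Over all genes they were lower without overlap for 29.9% and higher for 27.3%. Air and growth format differ together between these groups, and the labels give no calcium level or harvest day for the monolayers. Effects of calcium, air, time in culture and growth format cannot be told apart. In these bulk samples, fewer cells of a type and less RNA per cell cannot be told apart either.

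**Figure D2:**
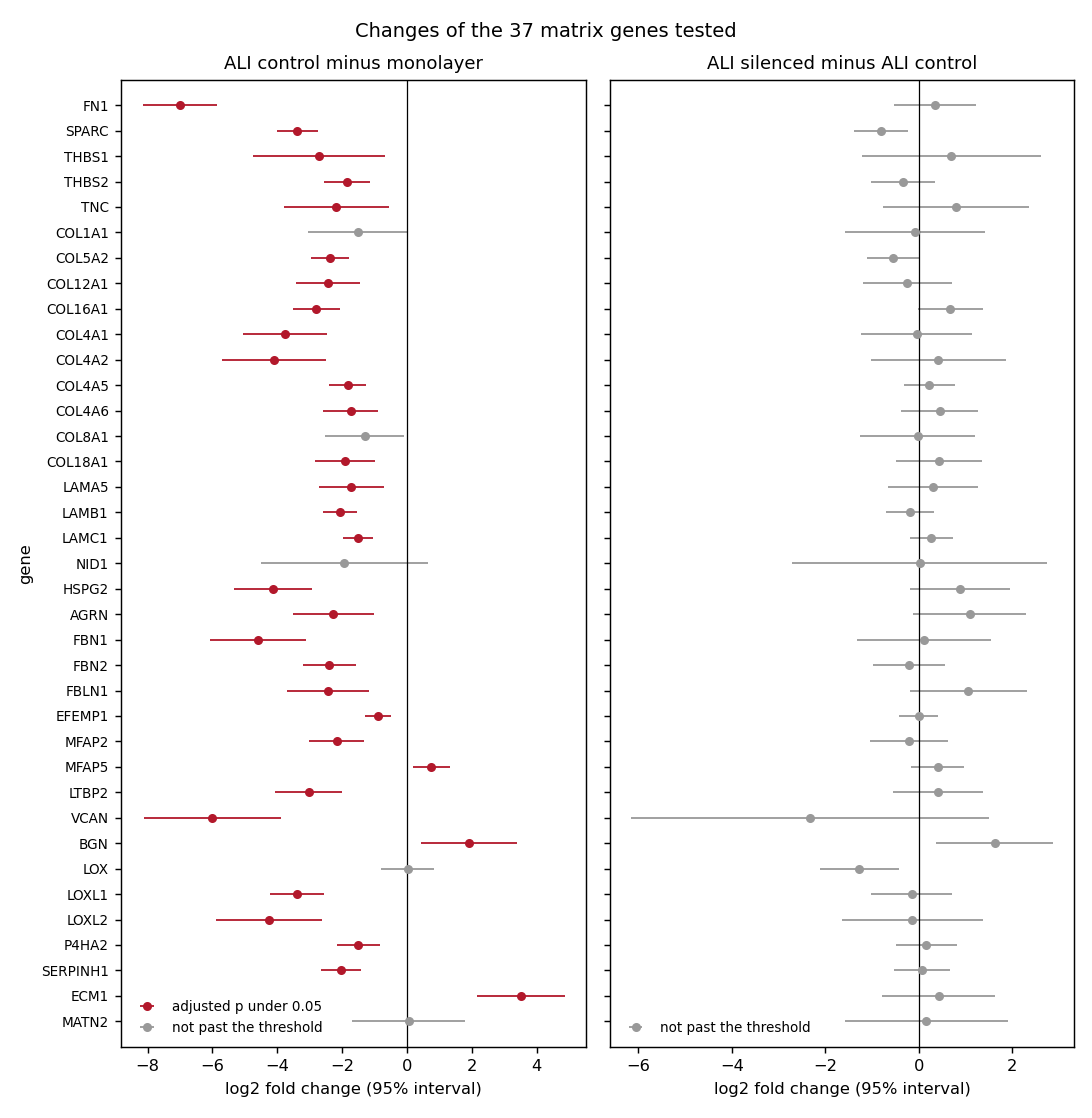
Log2 fold changes of the 37 tested matrix genes, 1 per row, for ALI control minus monolayer (left) and ALI silenced minus ALI control (right), with points for edgeR estimates, lines for 95% intervals, and red for an adjusted p below 0.05. On the left 29 genes fell and 3 rose, and on the right none passed.

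All 5 adhesive and matricellular glycoproteins fell, beside 20.2% of all tested genes. FN1 stood at 43832, 51782 and 47340 CPM in the monolayers (47651 ± 3984), at 499, 257 and 351 CPM in the ALI controls (369 ± 122), and at 510, 577 and 316 CPM in the silenced libraries (468 ± 135). Every monolayer was far above every ALI library. The log2 fold change was -7.01 (SE 0.47, 95% interval -8.16 to -5.87, adjusted p = 4.41e-06), 129-fold lower, which ranked 7 from the most negative of all tested genes. SPARC (chromosome 5, 151040657 to 151066615), a collagen-binding matricellular protein, stood at 1311, 926 and 951 CPM in the monolayers and at 104, 96.9 and 105 CPM in the ALI controls. It was 10.4-fold lower (log2 fold change -3.38, SE 0.25, adjusted p = 8.11e-06), with little spread inside either group. The thrombospondins are secreted glycoproteins that bind matrix and cell-surface receptors. THBS2 stood at 333, 565 and 562 CPM in the monolayers and at 140, 138 and 125 CPM in the ALI controls, a 3.62-fold fall (adjusted p = 0.000789).

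THBS1 and tenascin C (TNC), a glycoprotein of remodelling matrix, spread more at the interface. THBS1 (chromosome 15, 39873280 to 39889668) stood at 2186, 3714 and 3686 CPM in the monolayers and at 708, 90.7 and 668 CPM in the ALI controls. Its log2 fold change was -2.71 (SE 0.83, adjusted p = 0.0257). It no longer passed without monolayer library 2 (-2.57, adjusted p = 0.0637), without monolayer library 3 (-2.58, 0.0617), or with these summed as 1 (-2.58, 0.0622). TNC stood at 1045, 1164 and 1039 CPM in the monolayers, at 303, 64.0 and 348 CPM in the ALI controls, and changed by -2.18 (SE 0.66, adjusted p = 0.0246). TNC missed the threshold without monolayer library 1 (adjusted p = 0.0540), 2 (0.0612) or 3 (0.0529), and with libraries 2 and 3 summed (0.0562). For both genes every ALI control still lay below every monolayer library, and ALI control 2 was the lowest.

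**Figure D3:**
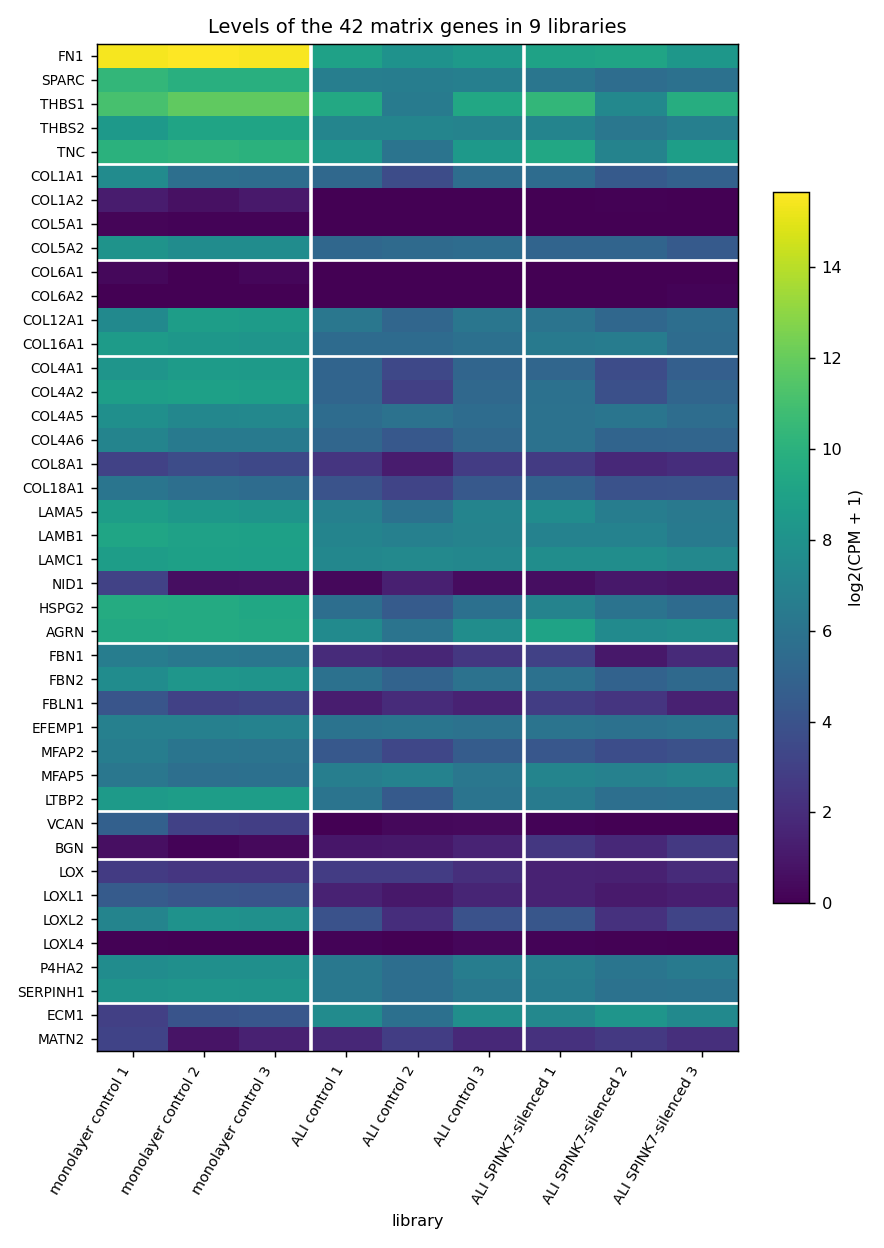
Levels of the 42 matrix genes (rows, white lines between classes) in the 9 libraries (columns, white lines between groups), with colour for log2(CPM + 1). The monolayer columns are brighter for most genes, and ECM1 is the other way, at 6.72 to 18.0 CPM in the monolayers and 55.1 to 286 CPM at the interface.

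Fibrillar collagens are the rope-like collagens of connective tissue. Of the 4 measured, COL5A2 and COL1A1 could be tested, and COL1A2 and COL5A1 had too few counts. COL5A2, the alpha 2 chain of type V collagen, fell 5.23-fold, from 261, 193 and 192 CPM in the monolayers to 36.5, 41.0 and 46.3 CPM in the ALI controls (log2 fold change -2.39, SE 0.24, adjusted p = 4.99e-05). COL1A1, the alpha 1 chain of type I collagen, did not pass. It stood at 184, 51.3 and 48.2 CPM in the monolayers and at 38.8, 11.6 and 48.3 CPM in the ALI controls, so the groups overlapped (-1.52, SE 0.62, adjusted p = 0.0746). It passed with the DESeq2 Wald test (-1.49, adjusted p = 0.0294), and gave -0.58 (adjusted p = 0.428) without monolayer library 1. Its partner chain COL1A2 had 34 counts over the 3 monolayers, 0 over the ALI controls and 1 over the silenced libraries. Against a floor of 3 counts over the group, COL1A2 was at least 9.40-fold lower in the ALI controls. COL5A1, the partner of COL5A2, had 4 counts over the monolayers and 0 at the interface.

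The collagens that decorate fibrils fell too. COL12A1, a fibril-associated collagen, stood at 171, 413 and 384 CPM in the monolayers and at 73.9, 35.0 and 70.0 CPM in the ALI controls, 5.41-fold lower (adjusted p = 0.00126). COL16A1 fell 6.96-fold, from 392, 310 and 286 to 43.2, 44.1 and 54.5 CPM (adjusted p = 8.02e-05). COL6A1 and COL6A2, chains of the beaded-filament type VI collagen, could not be tested. COL6A1 had 6 counts over the monolayers and 0 at the interface, and COL6A2 had 1 count, in a silenced library.

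Of the 12 basement membrane and network-forming genes 10 fell, beside 20.2% of all tested genes, with a median log2 fold change of -1.92 over the 12. Type IV collagen forms the network of the basement membrane, and 4 of its chains were measured. COL4A1 stood at 284, 382 and 368 CPM in the monolayers and at 32.5, 9.45 and 33.6 CPM in the ALI controls, 13.7-fold lower (log2 fold change -3.77, SE 0.53, adjusted p = 0.000435). COL4A2 stood at 433, 475 and 441 CPM in the monolayers and at 33.5, 6.93 and 37.6 CPM in the ALI controls, 17.3-fold lower (-4.11, SE 0.66, adjusted p = 0.00100). These chains assemble into 1 trimer, and among the ALI controls both were lowest in library 2. COL4A5 fell 3.56-fold, from 217, 154 and 155 to 44.4, 59.2 and 44.6 CPM (adjusted p = 0.000224). COL4A6 fell 3.32-fold, from 131, 87.6 and 85.3 to 34.8, 18.8 and 37.8 CPM (adjusted p = 0.00334). On the RPKM scale COL4A1 was at 0.63 to 0.80 of COL4A2 in the monolayers, 0.86 to 1.31 in the ALI controls and 0.60 to 0.84 in the silenced libraries. The ratio of COL4A5 to COL4A6 was 1.70 to 1.87 in the monolayers, 1.19 to 3.20 in the ALI controls and 1.01 to 2.15 in the silenced libraries.

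COL4A1 and COL4A2 lie head to head on chromosome 13, with 134 bases between the deposited rows (hg19: 110801310 to 110959496, minus strand, and 110959631 to 111165373, plus strand). COL4A6 and COL4A5 are arranged in the same way on chromosome X, with 369 bases between them (107398837 to 107682704, minus strand, and 107683074 to 107940775, plus strand). The bases between the start sites are shown because each pair shares them and all 4 genes fell. They are from RefSeq (GRCh38.p14, plus strand, 5′ to 3′): chr13:110307158-110307283, the 126 bases between the starts of COL4A1 and COL4A2, and chrX:108439588-108439708, the 121 of 379 bases between COL4A6 and COL4A5 that lie in both windows. Capitals mark matches on either strand to the same 5 motifs.
COL4A1/COL4A2: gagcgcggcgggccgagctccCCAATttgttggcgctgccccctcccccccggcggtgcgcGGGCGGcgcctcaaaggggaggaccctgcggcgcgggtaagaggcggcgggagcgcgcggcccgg
COL4A6/COL4A5: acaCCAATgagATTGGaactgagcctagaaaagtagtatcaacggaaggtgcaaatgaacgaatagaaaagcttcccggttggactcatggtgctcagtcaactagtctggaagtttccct
The stretch between COL4A1 and COL4A2 is 80.2% G and C and holds 1 CCAAT and 1 GGGCGG. That between COL4A6 and COL4A5 is 44.6% G and C and holds CCAAT once on each strand, with no GGGCGG.

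**Figure D4:**
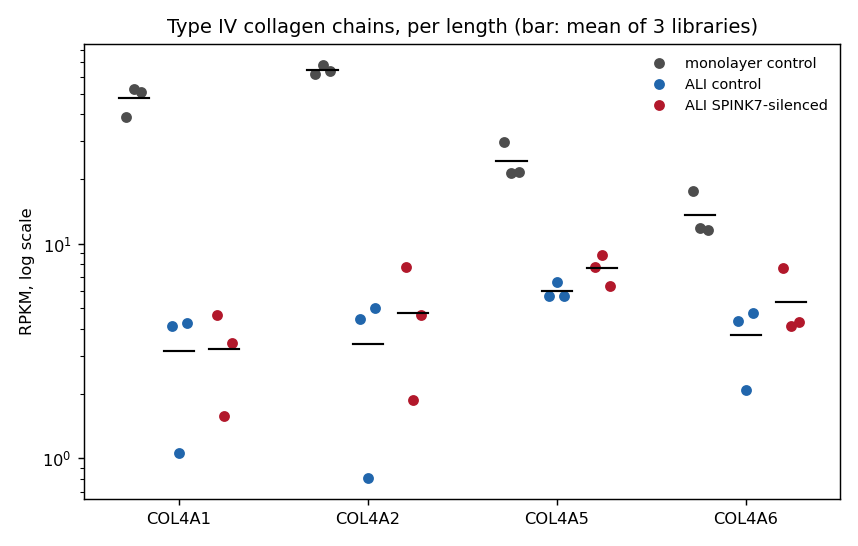
RPKM (log axis) of COL4A1, COL4A2, COL4A5 and COL4A6, with 1 point per library, coloured by group, and a bar at the mean of 3 libraries. COL4A1 averages 47.5 RPKM in the monolayers, 3.15 in the ALI controls and 3.21 in the silenced libraries, and COL4A2 averages 64.5, 3.41 and 4.77 RPKM.

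Laminins are the other polymer of the basement membrane. LAMB1 fell 4.21-fold, from 594, 487 and 485 CPM in the monolayers to 131, 113 and 128 CPM in the ALI controls (adjusted p = 6.58e-05). LAMC1 fell 2.86-fold, from 418, 476 and 449 to 153, 162 and 154 CPM (adjusted p = 0.000223), and had the narrowest ALI control group of the 3 laminin chains. LAMA5, the alpha 5 chain, fell 3.29-fold, from 415, 312 and 271 to 114, 56.1 and 134 CPM (adjusted p = 0.00786). Perlecan (HSPG2), a heparan sulfate proteoglycan of the same sheet, had the largest estimate of the class, close to that of COL4A2. It stood at 799, 776 and 648 CPM in the monolayers and at 50.2, 21.2 and 54.6 CPM in the ALI controls, 17.6-fold lower (log2 fold change -4.14, SE 0.49, adjusted p = 0.000152). Agrin (AGRN), another heparan sulfate proteoglycan, fell 4.82-fold, from 701, 748 and 691 to 180, 63.9 and 200 CPM (adjusted p = 0.00587).

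COL18A1, a collagen that carries heparan sulfate, fell 3.77-fold, from a mean of 54.5 to 14.4 CPM (adjusted p = 0.00336). COL8A1, a short-chain network collagen, was at 7.64 to 11.3 CPM in the monolayers and 1.26 to 5.81 CPM in the ALI controls. Its groups did not overlap, yet it missed the threshold (-1.31, SE 0.49, adjusted p = 0.0571) and passed under 7 of 22 alternative settings. Nidogen 1 (NID1), which bridges laminin and type IV collagen, rested on 1 library. It had 108 counts in monolayer 1 against 5 and 5 in monolayers 2 and 3, and did not pass (-1.93, SE 1.05, adjusted p = 0.165).

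Among 7 genes of microfibrils and elastic fibres, 6 fell and MFAP5 rose, beside 20.2% and 20.3% of all tested genes. Fibrillin 1 (FBN1), the core protein of microfibrils, stood at 100, 75.3 and 69.7 CPM in the monolayers and at 2.81, 2.27 and 4.86 CPM in the ALI controls, 24.4-fold lower (log2 fold change -4.61, SE 0.60, adjusted p = 0.000292). Fibrillin 2 (FBN2) fell less, 5.26-fold, from 195, 299 and 269 to 55.6, 31.1 and 58.4 CPM (adjusted p = 0.000394). LTBP2, a fibrillin-binding protein of the latent TGF-beta binding protein family, fell 8.18-fold, from 362, 426 and 426 to 63.9, 20.7 and 63.7 CPM (adjusted p = 0.000412). Fibulin 1 (FBLN1) fell 5.43-fold, from 16.3, 7.18 and 8.61 to 1.34, 2.77 and 1.80 CPM (adjusted p = 0.00430). EFEMP1, another fibulin, had the smallest fall that passed, 1.86-fold, from 110, 114 and 122 to 60.6, 67.0 and 58.1 CPM (-0.90, SE 0.17, adjusted p = 0.00226). The microfibril-associated proteins went apart. MFAP2 fell 4.49-fold, from 97.0, 66.9 and 64.8 to 19.3, 8.95 and 22.6 CPM (adjusted p = 0.000980). MFAP5 stood at 72.7, 51.0 and 53.8 CPM in the monolayers and at 102, 122 and 73.5 CPM in the ALI controls (log2 fold change 0.74, SE 0.23, adjusted p = 0.0283). The rise of MFAP5 lost the threshold in 7 of 22 settings, among them without monolayer library 2 (0.65, adjusted p = 0.106) or 3 (0.67, 0.0976) and without ALI control 1 (0.73, 0.0657) or 2 (0.57, 0.0552).

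The chondroitin and dermatan sulfate proteoglycans also went apart. Versican (VCAN), a large hyaluronan-binding proteoglycan, had 376, 70 and 62 counts in the monolayers (26.6, 7.08 and 6.59 CPM), against 5 counts over the 3 ALI controls and 1 over the silenced libraries. It was 64.0-fold lower in the ALI controls (log2 fold change -6.00, SE 0.86, adjusted p = 0.000518), and monolayer 1 was the high library. Without monolayer 1 the estimate was -5.02 (adjusted p = 0.00120). Biglycan (BGN), a small leucine-rich proteoglycan, was low throughout, at 0.566, 0.101 and 0.319 CPM in the monolayers and 0.937, 1.01 and 2.01 CPM in the ALI controls. Its rise passed (1.91, SE 0.61, adjusted p = 0.0304) but not without ALI control 3 (1.46, 0.109), without monolayer 2 (1.53, 0.0953) or without monolayer 3 (1.88, 0.0841), and was 2.61 without monolayer 1 (adjusted p = 0.0256).

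Of the collagen-modifying genes, 4 of 5 tested fell, beside 20.2% of all tested genes. LOXL2, a lysyl oxidase, stood at 133, 255 and 234 CPM in the monolayers and at 14.7, 3.15 and 14.7 CPM in the ALI controls, 19.0-fold lower (log2 fold change -4.25, SE 0.67, adjusted p = 0.000896). LOXL1 fell 10.5-fold, from 21.4, 16.3 and 15.3 to 1.87, 1.01 and 2.11 CPM (adjusted p = 5.25e-05). SERPINH1, the collagen chaperone of the endoplasmic reticulum, fell 4.12-fold, from 267, 291 and 279 to 76.0, 49.4 and 77.3 CPM (adjusted p = 0.000213). P4HA2, a catalytic subunit of collagen prolyl 4-hydroxylase, fell 2.84-fold, from 199, 221 and 218 to 77.6, 48.6 and 97.7 CPM (adjusted p = 0.00178). LOX itself was level, at 5.73, 4.65 and 4.57 CPM in the monolayers and 5.89, 5.92 and 3.38 CPM in the ALI controls (adjusted p = 0.976), with the groups overlapping. LOXL4 had 1 count over the monolayers, 3 over the ALI controls and 2 over the silenced libraries, too few to compare.

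ECM1 (chromosome 1, 150480487 to 150486265, plus strand), a secreted glycoprotein of skin and mucosa, rose most. It stood at 6.72, 15.6 and 18.0 CPM in the monolayers and at 191, 55.1 and 212 CPM in the ALI controls, with the silenced libraries at 158, 286 and 171 CPM. No library of either ALI group reached down to the monolayers. The log2 fold change was 3.51 (SE 0.55, 95% interval 2.16 to 4.86, adjusted p = 0.000895). Matrilin 2 (MATN2), an adaptor protein of filamentous matrix, was at 7.92, 0.809 and 1.70 CPM in the monolayers and 2.41, 6.17 and 2.43 CPM in the ALI controls, with the groups overlapping (adjusted p = 0.969).

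The comparison of ALI silenced with ALI control libraries asks what SPINK7 silencing does in differentiated cells. No matrix gene passed the test. The smallest adjusted p of the 37 was 0.152, for LOX. Over all 12806 genes 0.929% passed, 0.226% upward and 0.703% downward. Without adjustment 5 of the 37 had a p below 0.05, BGN and COL16A1 upward and LOX, SPARC and COL5A2 downward, beside 9.16% of all genes. The median log2 fold change of the 37 was 0.16, beside 0.01 over all genes, with estimates from -1.28 (LOX) to 1.62 (BGN) leaving aside VCAN. The groups lay apart without overlap for 1 gene upward (BGN) and for 3 downward (SPARC, COL5A2 and LOX), beside 5.75% and 6.35% of all genes. The DESeq2 Wald test called 2 of the 37, SPARC and LOX, and 3.24% of all genes. Effects of SPINK7 loss and of the construct cannot be told apart here.

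FN1 overlapped between the arms, at 499, 257 and 351 CPM in the controls and 510, 577 and 316 CPM in the silenced libraries. Its log2 fold change was 0.34 (SE 0.36, 95% interval -0.54 to 1.22, adjusted p = 0.796), and -0.04 (adjusted p = 0.976) without both ALI libraries numbered 2. SPARC stood at 104, 96.9 and 105 CPM in the controls and at 70.0, 48.0 and 56.8 CPM in the silenced libraries, with every silenced library below every control. Its log2 fold change was -0.81 (SE 0.23, 95% interval -1.38 to -0.24, adjusted p = 0.180), and it passed with DESeq2 (-0.83, adjusted p = 0.00781). LOX was at 5.89, 5.92 and 3.38 CPM in the controls and 1.77, 1.72 and 2.81 CPM in the silenced libraries (-1.28, SE 0.35, 95% interval -2.13 to -0.43, adjusted p = 0.152), and passed with DESeq2 (-1.31, adjusted p = 0.0361). COL5A2 was at 36.5, 41.0 and 46.3 CPM in the controls and 31.7, 31.9 and 21.1 CPM in the silenced libraries (-0.55, SE 0.23, adjusted p = 0.484). BGN was at 0.937, 1.01 and 2.01 CPM in the controls and 4.76, 2.54 and 5.15 CPM in the silenced libraries (1.62, SE 0.51, 95% interval 0.36 to 2.88, adjusted p = 0.243), the largest upward estimate, at a low level.

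AGRN and HSPG2 were highest in silenced library 1. COL16A1, FBLN1, THBS1 and TNC were high in another silenced library as well. AGRN stood at 553, 181 and 206 CPM in the silenced libraries against 180, 63.9 and 200 CPM in the controls (1.08, SE 0.49, adjusted p = 0.549), and gave 0.39 without silenced library 1. HSPG2 stood at 128, 60.2 and 42.8 CPM against 50.2, 21.2 and 54.6 CPM (0.88, SE 0.44, adjusted p = 0.590), and gave 0.30 without that library. COL16A1 was high in silenced libraries 1 and 2, at 87.6, 93.6 and 44.7 CPM, against 43.2, 44.1 and 54.5 CPM in the controls (0.67, SE 0.28, adjusted p = 0.491). FBLN1 stood at 6.07, 4.39 and 1.75 CPM against 1.34, 2.77 and 1.80 CPM (1.05, SE 0.51, adjusted p = 0.579). THBS1, at 1334, 161 and 878 CPM in the silenced libraries, and TNC, at 673, 125 and 445 CPM, overlapped widely with their controls (0.69, SE 0.78, adjusted p = 0.805, and 0.80, SE 0.64, adjusted p = 0.738). Without silenced library 1 THBS1 gave 0.09. VCAN had 1 count in the silenced libraries and 5 in the controls, and the ratio of control to silenced, 6.40, has an exact counting interval from 0.716 to 303.

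For every other tested gene the arms overlapped. Among the type IV collagen chains COL4A1, COL4A2 and COL4A6 were lowest in library 2 of both arms, and COL4A5 was highest there. The silenced libraries held COL4A1 at 35.6, 11.7 and 26.0, COL4A2 at 57.1, 13.2 and 33.8, COL4A5 at 59.4, 65.8 and 47.5 and COL4A6 at 59.7, 31.4 and 33.3 CPM. The laminin chains stood at 196, 99.7 and 78.6 (LAMA5), 121, 120 and 86.4 (LAMB1) and 202, 203 and 160 CPM (LAMC1). EFEMP1 was even across the arms, at 65.1, 57.0 and 62.8 CPM in the silenced libraries against 60.6, 67.0 and 58.1 in the controls. Microfibril genes varied from library to library without a split by arm. FBN1 stood at 7.19, 1.03 and 2.69, FBN2 at 56.7, 28.9 and 40.1, LTBP2 at 90.5, 52.2 and 53.5, MFAP2 at 18.2, 12.2 and 13.6 and MFAP5 at 133, 119 and 141 CPM. The same held for the remaining adhesive, collagen and collagen-modifying genes. THBS2 stood at 135, 74.5 and 108, COL12A1 at 64.9, 36.3 and 49.6, LOXL1 at 1.87, 1.17 and 1.52, LOXL2 at 17.6, 3.78 and 8.42, P4HA2 at 102, 67.5 and 81.3 and SERPINH1 at 93.2, 59.9 and 60.4 CPM.

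Many of these genes were low in the ALI libraries numbered 2. On log2(CPM + 1), the difference of ALI control 2 from the mean of ALI controls 1 and 3 had a median of -0.70 over the 37 genes, beside -0.04 over all tested genes. It was lower by at least 1 for 14 of the 37 (37.8%), beside 14.0% of all genes, and higher by at least 1 for 1 of the 37, beside 9.73%. In the silenced arm, library 2 against libraries 1 and 3 gave a median of -0.34 over the 37 genes, and 6 of them (16.2%) were lower by at least 1, beside 5.11% of all genes. THBS1 was lowest in both, at -2.91 in the control arm and -2.75 in the silenced arm, followed by TNC (-2.32 and -2.12) and COL4A2 (-2.20 and -1.66). LOXL2 gave -1.92 and -1.47, and COL4A1 gave -1.70 and -1.31. FN1 went apart, at -0.70 in the control arm and 0.52 in the silenced arm, as did ECM1, at -1.85 and 0.80. SPARC stood nearly level, at -0.11 and -0.39. Across the 37 genes these deviations had Pearson's r = 0.69 and Spearman's rho = 0.65 between the arms, and across all tested genes r = 0.58 and rho = 0.57. These are descriptions across genes, which are not independent, and the arms share no library. MKI67, a marker of cycling cells, stood at 39.6, 0.756 and 42.05 CPM in the ALI controls and at 106, 0.89 and 74.7 CPM in the silenced libraries. Summed over 6 cell cycle markers, MKI67 among them, the ALI controls held 190, 111 and 205 CPM and the silenced libraries 400, 65.4 and 394 CPM. In library 2 of either arm 4 of the 6 markers reached 1 CPM. The part of the cell cycle genes in the deviation of the matrix genes was not tested.

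**Figure D5:**
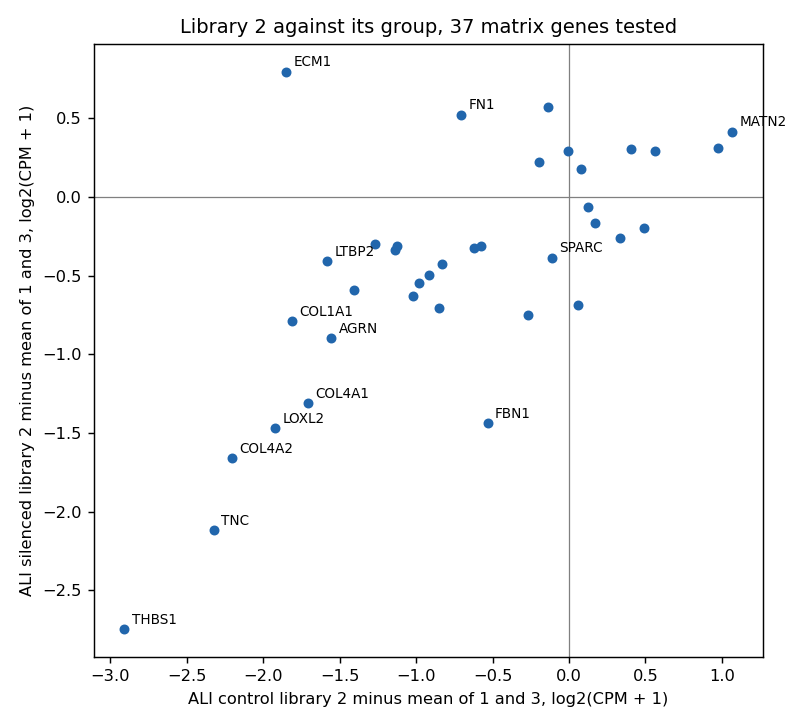
Deviation of library 2 from the mean of libraries 1 and 3 on log2(CPM + 1), with the ALI controls on the x axis and the ALI silenced libraries on the y axis. Each point is 1 of the 37 tested matrix genes, and THBS1 (-2.91 and -2.75) and TNC (-2.32 and -2.12) lie farthest to the lower left.

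Monolayer library 1 also differed from monolayers 2 and 3 in some of these genes. It was higher by at least 1 on log2(CPM + 1) for 4 of the 37 genes (10.8%), NID1 (2.51), MATN2 (2.01), COL1A1 (1.87) and VCAN (1.82), beside 2.01% of all tested genes. It was lower by at least 1 for 2 of the 37 (5.41%), COL12A1 (-1.22) and ECM1 (-1.20), beside 1.12% of all genes. POSTN, the matricellular protein periostin and 1 of 16 fibroblast or mesenchymal markers, stood at 94.7, 9.71 and 13.5 CPM in the monolayers. The sum of the 16 markers went the other way, at 1845 CPM in monolayer 1 against 2156 and 2153 CPM in monolayers 2 and 3. The source of these differences was not tested.

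Beyond the 42 genes, 5 further lists of matrix genes (other collagens, laminins and basement membrane genes, glycoproteins, proteoglycans and biosynthesis genes) held 139 genes of the tables, of which 59 were tested. At the interface 36 of these listed genes fell, 5 rose, among them LAMA2, SMOC1, MMRN2 and ADAMTS14, and 18 did not pass. Their median log2 fold change was -1.83. Of all tested genes 20.2% fell and 20.3% rose. Among other collagens 4 of 5 fell, COL22A1 from 140 to 1.49 CPM (-6.54), the anchoring fibril collagen COL7A1 (-3.15), COL27A1 (-2.44) and the hemidesmosomal COL17A1 (-2.15). Of 11 further basement membrane genes 8 fell and 2 rose. Among those that fell were the peroxidase PXDN (-2.92) and the laminin chains LAMA3, from 7389 to 1155 CPM (-2.68), and LAMB3, from 3888 to 715 CPM (-2.44). Of 20 other glycoproteins 10 fell, among them EFEMP2 (-3.48), MATN3 (-3.44) and LTBP3 (-2.89), and SPP1 had no count in the ALI controls against 1.47 CPM in the monolayers. The 1 gene tested of the proteoglycan list, HAPLN3, which links hyaluronan, fell (-2.26). Of 22 biosynthesis genes 13 fell, among them the crosslinking transglutaminase TGM2, from 98.6 to 4.63 CPM (-4.39), and the hyaluronan synthase HAS2, from 7.47 to 0.134 CPM. ADAMTS14, a procollagen N-proteinase, rose (3.77). On silencing none of the 59 passed with edgeR, with 7 below an unadjusted p of 0.05 (5 upward and 2 downward), a share near the 9.16% of all tested genes.

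Receptors for matrix did not all move one way. Of 20 tested, 10 fell at the interface, beside 20.2% of all tested genes, and 3 rose, beside 20.3%. Among the 10 were the integrin chains ITGA2 (-2.82), a collagen receptor subunit, and ITGB6 (-2.71). The 3 that rose were ITGB8 (2.76), the syndecan SDC4 (1.22) and CD36, a scavenger receptor that binds thrombospondin. CD36 stood at 0.0590 CPM in the monolayers and 45.3 CPM in the ALI controls. CD36 was the 1 receptor that fell on silencing, to 1.96 CPM (-4.50, SE 0.64, adjusted p = 0.0124). Of 21 tested matrix proteases and inhibitors 12 fell, beside 20.2% of all tested genes. Among the 12 were the gelatinase MMP2 (-3.29), ADAMTS6 (-3.09) and the plasminogen activator PLAT (-2.89). TIMP2, a metalloproteinase inhibitor, rose (2.49). None of the 21 passed on silencing with edgeR, with 4 below an unadjusted p of 0.05, beside 9.16% of all tested genes.

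Markers of connective tissue cells moved with the matrix genes in part. Summed over 16 fibroblast or mesenchymal markers, the monolayers held 1845 to 2156 CPM, the ALI controls 84.7 to 176 CPM and the silenced libraries 91.8 to 205 CPM, with counts for 11 to 12, 9 to 11 and 11 to 12 of the 16 genes. Most of this was vimentin (VIM), the intermediate filament of mesenchymal and cultured cells, at 1703, 2102 and 2092 CPM in the monolayers and 158, 43.3 and 140 CPM in the ALI controls (-4.11). N-cadherin (CDH2, -5.81) and smooth muscle actin (ACTA2, -3.71) fell too. Of the 9 markers tested 5 fell and 1 rose, beside 20.2% and 20.3% of all tested genes. TWIST2 (-2.75) and ZEB1 (-1.90), transcription factors of mesenchymal cells, also fell, from at most 8.08 CPM in the monolayers, and S100A4 rose (2.41). POSTN did not pass (-1.30, SE 0.94, adjusted p = 0.289), and FAP and TWIST1 did not either. In the monolayers 7 to 8 of the 16 markers reached 1 CPM. The other 7 markers had too few counts to test. Of these, LUM and TCF21 had no count in any library, DCN had 0, 6 and 1 counts over the ALI control, ALI silenced and monolayer libraries, and COL3A1 had 1, 1 and 4. PDGFRB and THY1 had 2 counts each, all in monolayers, and PDGFRA was below 1 CPM in every library. The part of the mesenchymal markers in the matrix differences was not tested. The summed epithelial markers ran from 26330 to 27118 CPM in the monolayers, 34558 to 79491 CPM in the ALI controls and 45983 to 83261 CPM in the silenced libraries. Leukocyte markers summed to 15.6 to 29.5 CPM in the monolayers, 53.1 to 69.6 CPM in the ALI controls and 66.5 to 87.1 CPM in the silenced libraries. Nearly all of this was CD68, a lysosomal protein that rose at the interface (1.30, SE 0.26, adjusted p = 0.00362), and PTPRC, the defining leukocyte gene, had no count. Endothelial markers summed to 0.404 to 0.744 CPM in the monolayers, 3.53 to 10.04 CPM in the ALI controls and 1.75 to 2.80 CPM in the silenced libraries. VWF, the von Willebrand factor gene, rose at the interface (5.24, SE 0.76, adjusted p = 0.000546), CLDN5 had no count in any library, and PECAM1 had 1 count over the ALI controls and 1 over the monolayers.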

How the data were processed

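RNA from 9 EPC2 libraries in 3 groups was polyA-selected and sequenced strand-specifically, per the labels' protocols. Each deposited table held 29800 rows, each with a whole-number read count and an RPKM that the authors made. The deposited counts were not normalized, and the deposited RPKM values were scaled by the authors to length and depth. The submitters' processing notes name hg19, STAR 2.4.2a, Bowtie and MACS2 without roles, and the counting tool and strand setting were not given in the sources used here. Reads of overlapping antisense genes may therefore not be separated. Groups and library numbers follow GEO's labels, from which the tables' names differ in the numbers of some ALI libraries and in the day.

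Counts and RPKM were each summed per gene symbol and chromosome (24672 genes). Of the 42 genes 5 had 2 rows, namely COL18A1, COL4A6, LOX, MFAP2 and P4HA2, so their RPKM is a sum. Rows naming several genes (511) held 0.411 to 0.554% of the counts. A share is the percent of all counts of a library. The fit used edgeR 4.0.16 in R 4.3.3 with TMM scaling, the low-count filter on the 3 groups (12806 genes) and a robust quasi-likelihood fit of all 9 libraries (6 residual degrees of freedom). P-values were Benjamini-Hochberg adjusted over all tested genes within a contrast, with a threshold of 0.05. Errors of a fold change come from the F statistic, and intervals are 95% intervals from a t distribution with 6 degrees of freedom. The edgeR test does not use that distribution, so an interval can reach 0 where its unadjusted p is below 0.05. For COL16A1 on silencing the edgeR p was 0.0389 and the interval -0.02 to 1.36. Levels are CPM, given as mean ± SD (n = 3). The code was tested on simulated data.

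Values in every library are given for FN1, for members at a mean of at least 100 CPM in any group, and for members that passed with an absolute log2 fold change of at least 2 and reached a mean of 10 CPM in either group. Other members are given by range or count, or by library where a sentence needs it. From each further list up to 4 genes that passed with the largest change are named. Some genes that this rule takes are left out of the text. Genes that rose, SDC4 and the markers of other cell types were named beyond this rule after their values were seen. The 42 genes, the lists and the alternatives were chosen with earlier results of these data known. Alternatives were DESeq2 1.42.0, limma 3.58.1 (voom, and the log2 of RPKM with a pseudocount of 1 or 0.1), other scalings, filters and thresholds, thinning to 7641960 counts, a replicate block, and leaving out libraries. Promoter sequences are from RefSeq (GRCh38.p14), and no coordinates were converted between builds.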

Additional observations from a re-analysis of the deposited data

How the results depend on the processing

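The differentiation count of 32 of 37 genes ran from 28 to 33 without single libraries and from 28 to 34 under the other settings, and 28 of the 32 passed in each of 22 settings, the exceptions being THBS1, TNC, MFAP5 and BGN. No gene that passed turned its sign. The silencing count was 0 without any 1 library and in every other setting except the DESeq2 Wald test, which gave 2 (SPARC and LOX). Of the 37 silencing estimates, 16 turned sign in some setting. FN1 ran from -7.29 to -6.80 for differentiation and from 0.14 to 0.62 for silencing without single libraries, and its silencing estimate reversed to -0.041 with the ALI libraries numbered 2 left out of both arms, a fit of fewer samples. As a share of summed RPKM, which is per length, all 42 genes took 0.09999% in the ALI controls, 0.142% in the silenced libraries and 2.10% in the monolayers, and FN1 took 0.00796, 0.0114 and 1.52%. Of the monolayer counts, the 41 genes other than FN1 took 1.31%. As a share of the 42 genes alone, FN1 took 13.3, 13.7 and 79.3%. A replicate block gave 34 differentiation and 0 silencing calls, the 2 gained being COL1A1 (-1.44, adjusted p = 0.0194) and COL8A1 (-1.46, adjusted p = 0.0372). Same-numbered ALI libraries deviated together with r = 0.49, 0.58 and -0.01, so the numbers were not taken as pairs, and not every library correlated best with its own number. Depth limits COL1A2, COL5A1, COL6A1, COL6A2 and LOXL4, which had too few counts to test.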
